A study of Homo sapiens with 12 samples.

Results

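The mitochondrial ribosome is built from nuclear genes named MRPL (large subunit) and MRPS (small subunit). These genes were taken from the mRNA table by symbol, as MRPL or MRPS followed by a number and at most a letter A to C, and 78 of 19659 genes matched, with 279 of 83027 transcripts. The transcripts of a gene were summed, so each gene has a level in FPKM (fragments normalised for transcript length and for library size) in each library. The study grew cells labelled HEL, a human erythroleukaemia line, with 40 µg/ml DMAG (a methylated ellagic acid bearing a glucose) for 3 days, or as controls for which no vehicle, dose or day is recorded. There were 3 DMAG and 3 control libraries of RNA depleted of ribosomal RNA.

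Each member is made in the cytosol, imported and joined to an rRNA encoded by mitochondrial DNA. The finished particle translates only the mRNAs of mitochondrial DNA, all of which encode membrane subunits of the respiratory chain and of ATP synthase, and it is docked at the inner membrane. By origin, the members fall into those with a bacterial counterpart and those added later in mitochondria. MRPS30 and MRPS18A carry the name of the small subunit but sit in the large subunit of the human particle, so they were counted there, and MRPS36 is now known as a subunit of the 2-oxoglutarate dehydrogenase complex and was kept as a member but put in neither subunit. That left 51 large and 26 small subunit genes.

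Markers of the labelled cell type were nearly absent. Of 13 erythroid and megakaryocyte genes used to mark HEL cells, 2 reached the level tested, 1 of them through DMAG replicate 3 alone. The summed level of all 13 was 5.04 to 11.8 FPKM in DMAG libraries and 3.98 to 4.84 FPKM in control libraries. Granulocyte and monocyte genes, 8 of 8 tested, summed to 1573 to 1738 FPKM in DMAG libraries and 2253 to 2424 FPKM in control libraries. In the test described below, 4 of these 8 were lower and 3 higher with DMAG, so the sum does not stand for each gene. Of all genes tested 26.1% were lower and 22.4% higher. The erythroid and megakaryocyte sum was highest in DMAG replicate 3, so counts are also given without that library. The part of these marker levels in the results below was not tested. How many reads lie behind each FPKM value is unknown. In bulk RNA a lower share of cells that carry an mRNA and less of it per cell cannot be told apart.

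All 78 members were measured above the level tested (a mean of 0.5 FPKM over the 6 libraries). Their means ran from 4.97 FPKM (MRPS36) to 85.3 FPKM (MRPL3), with a median of 26.2 FPKM against 13.3 FPKM over all 10394 genes tested. Next to MRPL3, the most abundant were MRPL37, MRPL12 and MRPS34. The question was which of them differed with DMAG, in limma on log2(FPKM + 1) with p adjusted over all genes tested.

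The summed FPKM of the mitochondrial ribosomal protein genes was lower in DMAG libraries. The 78 members summed to 2160, 2228 and 2203 FPKM in DMAG replicates 1 to 3, against 2487, 2598 and 2592 FPKM in control replicates 1 to 3, so the groups did not overlap. As a share of the summed FPKM of all mRNAs this was 0.658% to 0.669% in DMAG libraries and 0.713% to 0.728% in control libraries. The mean sum changed with DMAG by -14.1% for the members, -12.6% for cytosolic ribosomal protein genes and -6.78% for all mRNAs. The difference between these sums was not tested. In the test, 37 members were lower and 4 higher, and 37 did not pass. The fall was therefore called for 47.4% of members and the rise for 5.13%, where 26.1% of all genes tested were called lower and 22.4% higher. The median log2 change of the members was -0.19, against -0.01 for all genes tested. Without DMAG replicate 3, 31 members were lower and 4 higher, and with any 1 library left out 31 to 38 were lower and 2 to 6 higher (2 without control replicate 1). The libraries of the groups did not overlap for 42 members lower and 5 higher with DMAG, against 31.6% and 27.9% of all genes tested.

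Falls were found in both subunits, and the difference between the subunits was not tested. Of the large subunit genes 25 of 51 (49%) were lower and 2 (3.92%) higher, with a median log2 change of -0.18. Of the small subunit genes 11 of 26 (42.3%) were lower and 2 (7.69%) higher, with a median of -0.19. The shares over all genes tested were 26.1% lower and 22.4% higher. The mean level of a large subunit gene was 1.03 to 1.10 times that of a small subunit gene in DMAG libraries and 1.04 to 1.08 times in control libraries. Most changes were small: 10 of the 78 members had a log2 change below -0.5, of which MRPS27 did not pass and 1 (MRPL12) was below -1. When libraries were scaled to the same sum of nuclear-encoded mRNAs, 24 members were lower and 9 higher (large subunit 16 and 5, small subunit 7 and 4), so falls made up 72.7% of the calls in place of 90.2%, while for all genes the share of falls was 36.8% in place of 53.8%. On that scale the members' median was -0.09 and that of all genes 0.08, and the distance between the medians was -0.17, against -0.18 on the deposited scale.

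**Figure D1:**
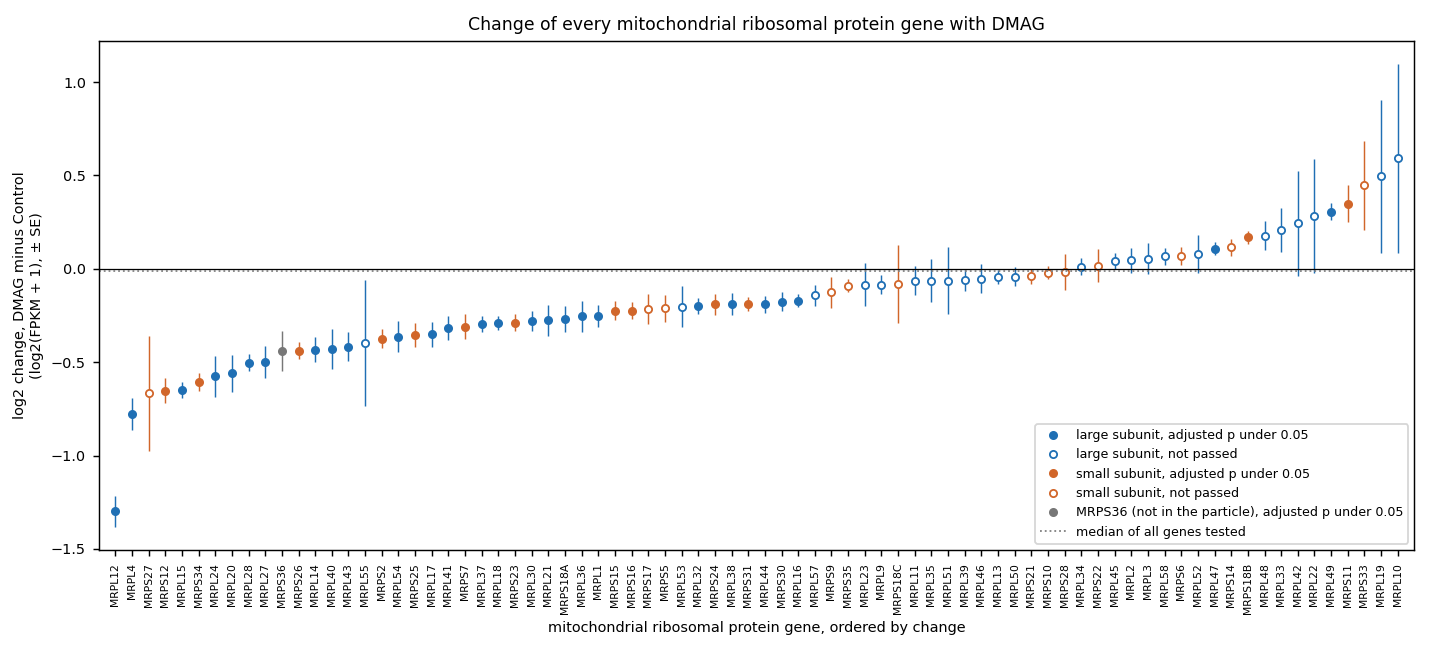
Log2 change with DMAG (DMAG minus control, log2(FPKM + 1), ± SE, 3 libraries a group) of the 78 members, in order of change; filled points passed at an adjusted p under 0.05 and open points did not. MRPL12 stood at -1.30, the other falls ran on from MRPL4 at -0.78, and the points with the longest bars, such as MRPL10 and MRPL19, did not pass.

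**Figure D2:**
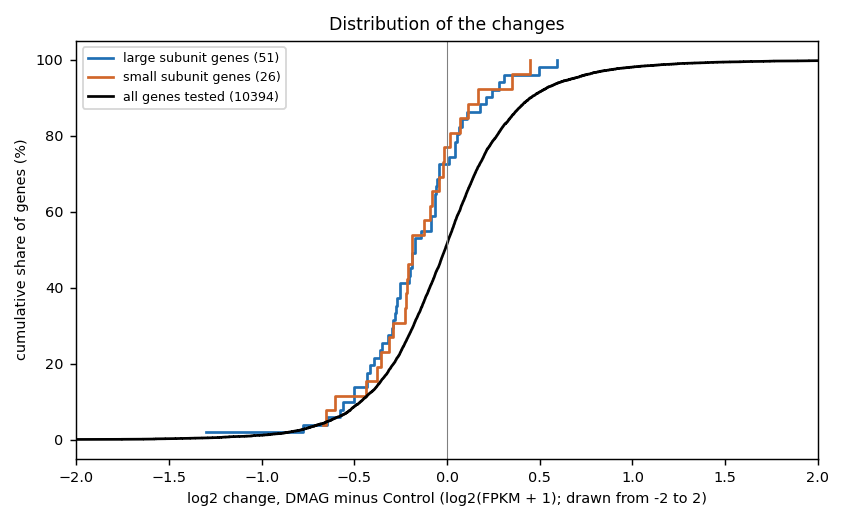
Cumulative share of genes (%) by log2 change with DMAG for 51 large subunit genes, 26 small subunit genes and all 10394 genes tested, cut at the edges of the axis. The curves of the subunits run together and lie left of the curve of all genes over most of its course; 74.4% of the 78 members and 51.5% of all genes had a change below 0.

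MRPL12 had the deepest fall. It is the mitochondrial relative of bacterial L7/L12, the flexible stalk protein that recruits translation factors, and outside the ribosome the human protein binds the mitochondrial RNA polymerase POLRMT. MRPL12 (ENSG00000262814) was at 38.9, 44.1 and 48.7 FPKM in DMAG replicates 1 to 3, against 104, 113 and 110 FPKM in control replicates 1 to 3. Every DMAG library lay below every control library, and the means were 43.9 ± 4.90 FPKM with DMAG and 109 ± 4.44 FPKM in controls (SD, n = 3 each, as for all means below), 2.48-fold lower with DMAG (log2 change -1.30, SE 0.0829, limma adjusted p = 1.2e-04). The table lists a single transcript for it, so its level is not a sum over several. Neither of the other proteins at the base of that stalk passed: MRPL11 was at 26.6 ± 1.13 FPKM with DMAG and 28.0 ± 2.87 FPKM in controls (adjusted p = 0.53), and MRPL10 varied widely between libraries. The 250 bases before the annotated start of MRPL12 (RefSeq, GRCh38.p14, plus strand, chr17:81703117-81703366) are shown as the promoter of the member with the deepest fall, with no capitals because none of the motifs searched below is in it.
MRPL12: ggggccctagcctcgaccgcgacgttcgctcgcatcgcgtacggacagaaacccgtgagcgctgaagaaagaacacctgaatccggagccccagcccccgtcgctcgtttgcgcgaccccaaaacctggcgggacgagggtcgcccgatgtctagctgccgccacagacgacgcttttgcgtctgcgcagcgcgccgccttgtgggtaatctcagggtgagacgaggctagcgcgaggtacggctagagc

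The next falls came from several parts of the particle. MRPL4, the mitochondrial uL4 of the exit tunnel, was at 30.5, 29.6 and 24.6 FPKM in DMAG libraries, against 46.4, 49.7 and 50.6 FPKM in control libraries (1.73-fold lower, log2 change -0.78, SE 0.0859, adjusted p = 7.3e-04). MRPS12, the decoding centre protein uS12, was at 30.5, 32.1 and 36.5 FPKM in DMAG libraries, against 53.9, 51.5 and 51.6 FPKM in control libraries (1.59-fold lower, adjusted p = 6.0e-04). MRPL15, a large subunit protein with a bacterial counterpart, was at 37.6, 35.8 and 37.2 FPKM in DMAG libraries, against 60.7, 55.9 and 58.4 FPKM in control libraries (1.58-fold lower, adjusted p = 1.3e-04). In each of these the highest DMAG library was below the lowest control library.

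MRPS34, a mitochondrial addition to the small subunit needed for its stability, was at 56.0, 62.7 and 59.1 FPKM in DMAG libraries, against 87.8, 90.7 and 93.3 FPKM in control libraries (1.53-fold lower, adjusted p = 2.7e-04). MRPL28 averaged 36.5 ± 0.665 FPKM with DMAG and 52.1 ± 2.55 FPKM in controls (1.43-fold lower, adjusted p = 3.4e-04), and its groups did not overlap. MRPL20, which binds the large subunit rRNA early in assembly in bacteria, averaged 36.5 ± 3.90 FPKM with DMAG and 54.3 ± 4.96 FPKM in controls (adjusted p = 0.0045). MRPL24 averaged 19.8 ± 2.01 FPKM with DMAG and 30.1 ± 3.68 FPKM in controls (adjusted p = 0.0060), and MRPL27, near the peptidyl transferase centre in bacteria, averaged 17.1 ± 1.60 FPKM with DMAG and 24.6 ± 2.09 FPKM in controls (adjusted p = 0.0042). MRPS36 averaged 4.06 ± 0.324 FPKM with DMAG and 5.88 ± 0.910 FPKM in controls (1.45-fold lower, adjusted p = 0.016, or 0.053 without DMAG replicate 2). The other 27 falls lay between -0.44 and -0.17 on the log2 scale. By the most abundant transcript alone the falls of MRPL4, MRPL24 and MRPS36 did not pass (adjusted p = 0.067, 0.089 and 0.13 in that order), though each change stayed below 0.

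The 4 rises were smaller. MRPS11, the platform protein uS11, was at 11.2, 10.9 and 13.9 FPKM in DMAG libraries, against 8.67, 9.64 and 9.18 FPKM in control libraries (1.31-fold higher, log2 change 0.35, SE 0.0971, adjusted p = 0.026). That call was lost without control replicate 1 or control replicate 3 (adjusted p = 0.075 and 0.065). MRPL49, a mitochondrial addition to the large subunit, was at 40.3, 38.4 and 40.1 FPKM in DMAG libraries, against 32.9, 32.3 and 30.3 FPKM in control libraries (1.24-fold higher, adjusted p = 0.0021). MRPS18B averaged 46.9 ± 0.709 FPKM with DMAG and 41.7 ± 0.781 FPKM in controls (1.13-fold higher, adjusted p = 0.0067). MRPL47, the mitochondrial uL29 at the rim of the exit tunnel, was at 50.2, 50.7 and 49.5 FPKM in DMAG libraries, against 44.7, 47.4 and 47.2 FPKM in control libraries (1.08-fold higher, adjusted p = 0.047), a call lost when any 1 of the 6 libraries was left out (adjusted p between 0.071 and 0.12). In all 4 the lowest DMAG library was above the highest control library.

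**Figure D3:**
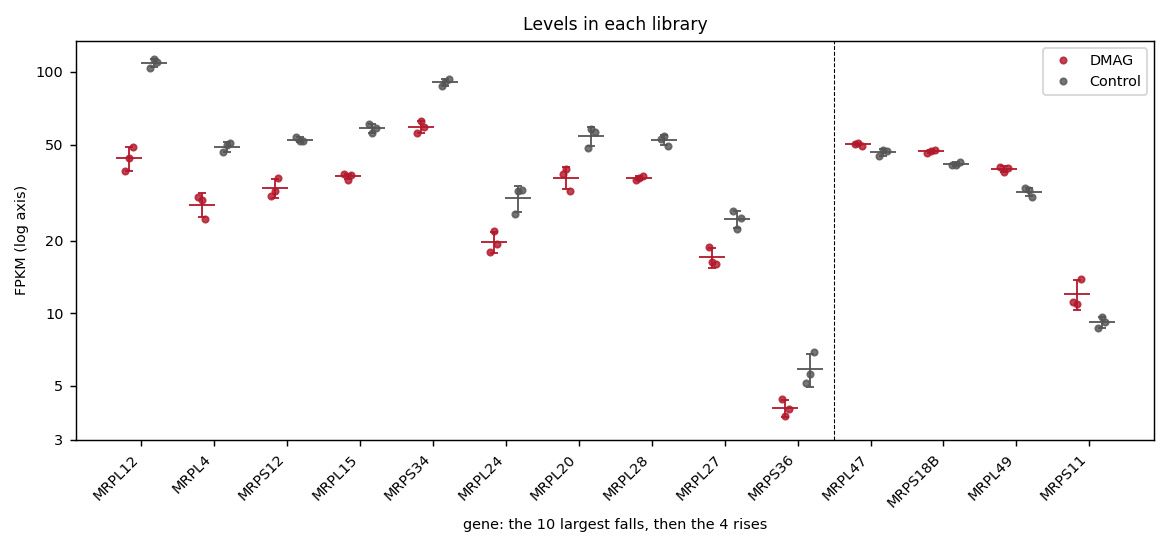
FPKM (log axis) in each DMAG and control library of the 10 members with the largest falls and the 4 that rose; points are libraries, bars the mean ± SD. In the falls the DMAG points lie below the control points, most widely for MRPL12 (38.9 to 48.7 FPKM with DMAG against 104 to 113 FPKM in controls), and in the rises they lie above by a smaller step.

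MRPL3 was the most abundant member and did not pass, with 76.0, 89.8 and 95.5 FPKM in DMAG libraries against 82.3, 83.0 and 85.0 FPKM in control libraries (adjusted p = 0.61). MRPL37, a mitochondrial addition next in level, fell to 74.6 ± 1.47 FPKM with DMAG, against 92.0 ± 4.22 FPKM in controls (1.23-fold lower, adjusted p = 0.0021). The members with the smallest change were MRPL34, at 22.9 ± 0.921 FPKM with DMAG and 22.7 ± 0.639 FPKM in controls, and MRPS22, at 24.0 ± 1.74 FPKM with DMAG and 23.8 ± 2.52 FPKM in controls. Split by mean level into 3 sets of 26 members, the most abundant set had 16 lower and 3 higher, the middle set 11 lower and 0 higher, and the least abundant set 10 lower and 1 higher. Among the 7443 genes tested within the members' range of mean level, 28.0% were lower and 21.1% higher. The 3 sets were not tested against these shares.

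By origin, 16 of 30 large subunit genes with a bacterial counterpart were lower and 1 higher (median log2 change -0.23), and 9 of 21 large subunit genes added in mitochondria were lower and 1 higher (median -0.14). All 7 large subunit members with a change below -0.5 had a bacterial counterpart, a count noted after the values were seen. For the small subunit, 6 of 16 with a bacterial counterpart were lower and 1 higher (median -0.16), and 5 of 10 added members were lower and 1 higher (median -0.24). MRPS18A and MRPS18B, though relatives of bacterial S18, were counted among the added members, and MRPS18C among those with a bacterial counterpart. The difference between these classes was not tested. Nor were their counts tested against the 26.1% lower and 22.4% higher of all genes tested (median -0.01).

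The counts by functional site rest on 6 to 8 members each and were not tested against the 26.1% lower and 22.4% higher of all genes tested. There, 4 of 6 proteins of the decoding centre and mRNA path were lower and 1, MRPS11, higher. Besides MRPS12 the smallest p in that set was that of MRPS2, at 28.4 ± 0.881 FPKM with DMAG and 37.1 ± 2.04 FPKM in controls (1.31-fold lower, adjusted p = 0.0017). At the rim of the exit tunnel, where nascent membrane proteins leave, 3 of 8 were lower and 1 higher. MRPL17 there averaged 7.58 ± 0.669 FPKM with DMAG and 9.93 ± 0.234 FPKM in controls (adjusted p = 0.0070), while MRPL45, which contacts the inner membrane, was at 28.4 ± 0.940 FPKM with DMAG and 27.6 ± 1.05 FPKM in controls (adjusted p = 0.48, or 0.039 and called higher at the same sum of nuclear-encoded mRNAs). Of 6 proteins of the central protuberance, where the subunits meet, 3 were lower and 0 higher in limma, with the same counts at an unadjusted p under 0.05. MRPL18 fell to 66.6 ± 1.95 FPKM with DMAG, against 81.7 ± 2.09 FPKM in controls (adjusted p = 0.0013), and MRPL40 was 1.37-fold lower (adjusted p = 0.017, lost without DMAG replicate 2 or 3 at 0.056 and 0.053).

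The MRPS18 paralogs, 3 relatives of bacterial S18 that take separate places in the particle, had different calls. The difference between them was not tested. MRPS18A, in the large subunit, was at 18.1 ± 0.853 FPKM with DMAG and 22.0 ± 1.81 FPKM in controls (adjusted p = 0.019, or 0.068 at the same sum of nuclear-encoded mRNAs and 0.19 by its most abundant transcript). MRPS18B rose, as above. MRPS18C was at 16.4, 15.9 and 15.2 FPKM in DMAG libraries and at 11.6, 21.4 and 19.1 FPKM in control libraries (adjusted p = 0.77), the spread being among the controls.

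Members whose leading transcript changed between libraries had a wider spread at the median, a difference that was not tested. In 63 of the 78 members the same transcript led in all 6 libraries, and of these 32 were lower, 4 higher and 27 not passed. In the other 15 the leading transcript was not the same in all libraries, and of these 5 were lower, 0 higher and 10 not passed. The shares over all genes tested were 26.1% lower and 22.4% higher. The median coefficient of variation of the summed level was 4.71% in DMAG and 4.69% in control libraries in the first set, and 11.3% and 9.23% in the second. In the first set 20 members had 1 transcript above 0, so their leading transcript could not change (medians 4.14% and 4.09%). Single members of that set also varied widely, such as MRPL55 at 37.2% in DMAG and 29.4% in control libraries.

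MRPL10, the base of the stalk that carries MRPL12, was the extreme case. Its summed level was 8.21, 24.3 and 23.2 FPKM in DMAG libraries and 19.7, 8.88 and 7.05 FPKM in control libraries, and the groups overlapped (log2 change 0.59, SE 0.506, adjusted p = 0.38). The transcript ENST00000351111 gave 8.97% to 99.1% of that level depending on the library. MRPL19 was similar, at 47.5, 30.3 and 28.3 FPKM in DMAG libraries and 12.7, 38.8 and 28.1 FPKM in control libraries. There ENST00000409374 was at 28.9, 1.02 and 1.32 FPKM in DMAG libraries and at 0, 20.6 and 0 FPKM in control libraries. MRPS27, a pentatricopeptide repeat protein of the small subunit, was at 11.8, 26.6 and 27.1 FPKM in DMAG libraries and 33.7, 36.1 and 29.98 FPKM in control libraries. It did not pass (log2 change -0.67, adjusted p = 0.12), but without DMAG replicate 1 it was -0.29 and passed (adjusted p = 0.040).

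MRPL37 showed the opposite of MRPL10, with a steady sum over unsteady parts. ENST00000360840 held 32.7% to 99.4% of its level across the 6 libraries, while the sums were 73.3, 76.2 and 74.3 FPKM in DMAG libraries and 87.1, 93.8 and 95.0 FPKM in control libraries. By that transcript alone the fall did not pass (log2 change -0.87, adjusted p = 0.33).

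**Figure D4:**
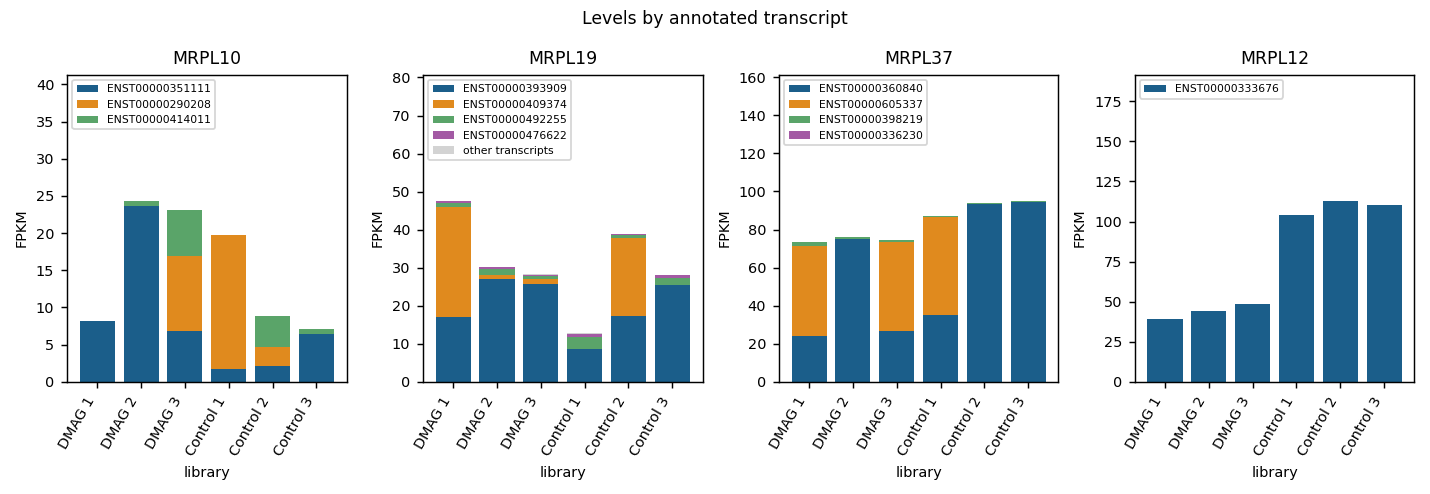
FPKM by annotated transcript (stacked bars, colours are transcripts) in DMAG and control libraries for MRPL10, MRPL19, MRPL37 and MRPL12. In MRPL10 and MRPL19 both the leading transcript and the sum change between libraries of a group, in MRPL37 the sum holds while its parts exchange, and MRPL12 has 1 transcript.

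Members share promoter letters that the choice of genes did not use. RefSeq (GRCh38.p14) promoters, 250 bases before to 50 after the start, matched 69 of the 78 members; MRPL2, MRPL10, MRPL13, MRPL15, MRPL21, MRPL23, MRPL35, MRPS28 and MRPS36 had no entry. Searched on both strands, the letters AAGATGGC, a core recognised by the factor YY1, were in 29.0% of these promoters, in 6.31% of promoters of genes tested and in 3.03% of all 27305 promoters. The letters CCGGAAG, recognised by ETS factors such as GABPA, were in 42.0% of members' promoters, in 22.2% of those of genes tested and in 10.7% of all. The E-box CACGTG, bound by MYC with MAX, was in 8.70%, 10.9% and 7.43% in the same order, and GCATGCGC, part of the NRF1 motif, in 8.70%, 6.28% and 3.27%. The whole NRF1 motif, which contains that part, was in 1 member, MRPL17, and none of the other motifs contains another. These are matches of letters and not measured binding.

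YY1 letters lay mostly just after the start: 15 of 21 matches began within the 50 bases after it. All 15 read as AAGATGGC on the strand of the gene. These letters contain ATG, and whether a match overlaps a start codon was not examined. A match is shown in capitals within 30 bases for MRPL20, which fell, and for MRPS18B and MRPL47, which rose. The matches of MRPL20 and MRPS18B begin 16 and 24 bases from the start, while that of MRPL47 is upstream, beginning at -92, and reads on the other strand as GCCATCTT. The windows are at chr1:1407260-1407289 (minus strand), chr6:30617852-30617881 (plus strand) and chr3:179604712-179604741 (minus strand) in turn.
MRPL20: ccgacccgggcAAGATGGCagcggcgctgc
MRPS18B: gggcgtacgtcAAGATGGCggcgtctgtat
MRPL47: ggcaggatgtgGCCATCTTaagtgagggca

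Falls were found with and without these letters, and the difference was not tested. Nor were the counts of lower members tested against the 26.1% of all genes tested that were lower. Of 20 members with YY1 letters 9 were lower, and of 49 without them 25 were lower. With the ETS letters 16 of 29 were lower and without them 18 of 40, and the median log2 change was -0.19 in each of these 2 sets. Of 8 members with both motifs 4 were lower, and of 28 with neither 13. MRPS34, which fell, holds the ETS letters 3 times (capitals, CTTCCGG being the other strand, beginning at -71, -29 and -19 from the start), and MRPS11, the largest rise, holds none. The bases before the start are from chr16:1773135-1773384 (minus strand, chosen after the search) and chr15:88467458-88467707 (plus strand).
MRPS34: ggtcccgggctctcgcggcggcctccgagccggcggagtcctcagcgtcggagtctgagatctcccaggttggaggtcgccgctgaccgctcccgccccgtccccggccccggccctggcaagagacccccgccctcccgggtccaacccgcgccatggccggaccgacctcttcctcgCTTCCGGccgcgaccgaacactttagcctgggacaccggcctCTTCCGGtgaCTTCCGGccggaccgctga
MRPS11: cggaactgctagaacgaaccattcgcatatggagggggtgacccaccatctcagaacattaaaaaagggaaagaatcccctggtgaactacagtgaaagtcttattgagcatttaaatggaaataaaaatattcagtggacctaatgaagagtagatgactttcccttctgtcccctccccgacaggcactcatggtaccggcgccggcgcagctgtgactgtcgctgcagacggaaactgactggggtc

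Head-to-head neighbours were compared where a gene on the other strand began within 1000 bases before a member's start. Such a partner was found for 22 of 69 members, and it was tested in 16. MRPS11 and MRPL46 are such a pair, with starts 320 bases apart: MRPS11 rose, while MRPL46 was at 14.1 ± 0.756 FPKM with DMAG and 14.7 ± 1.40 FPKM in controls (adjusted p = 0.60). MRPL18 and its neighbour TCP1, a subunit of the cytosolic chaperonin, were both lower, TCP1 at 275 ± 34.2 FPKM with DMAG and 374 ± 17.3 FPKM in controls (adjusted p = 0.0080). MRPL49 and FAU, which encodes a cytosolic ribosomal protein, were both higher, FAU at 328 ± 15.4 FPKM with DMAG and 281 ± 12.04 FPKM in controls (adjusted p = 0.014). Next to MRPL37, CYB5RL was higher (11.5 ± 0.510 FPKM with DMAG and 8.74 ± 0.853 FPKM in controls, adjusted p = 0.0098). Over the 7 lower members with a tested partner, 2 partners were lower, 2 higher and 3 not passed. Over the 3 higher members with one, 1 partner was lower, 1 higher and 1 not passed, the lower one being PPP1R10 beside MRPS18B (adjusted p = 0.022). Over the 6 members that did not pass, 0 partners were lower, 4 higher and 2 not passed. The pair of MRPS11 and MRPL46 enters these counts from both sides, MRPS11 itself being among the 4 higher partners. Of all genes tested 26.1% were lower and 22.4% higher, and the partner counts were not tested against these shares.

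The particle also holds proteins under other names, and 3 of 5 of these were lower and 0 higher in limma (4 and 0 at an unadjusted p under 0.05). Among all genes tested 26.1% were lower and 22.4% higher, and the count over these 5 was not tested against those shares. DAP3, the GTP-binding protein of the small subunit, was at 34.9, 33.4 and 34.5 FPKM in DMAG libraries, against 40.7, 47.5 and 44.7 FPKM in control libraries (1.29-fold lower, log2 change -0.36, adjusted p = 0.0039). AURKAIP1 was 1.33-fold lower (adjusted p = 9.6e-04) and GADD45GIP1 1.41-fold lower (adjusted p = 0.0012); AURKAIP1 sits in the small and GADD45GIP1 in the large subunit. CHCHD1 was at 10.1 ± 1.19 FPKM with DMAG and 13.0 ± 1.81 FPKM in controls (adjusted p = 0.056). PTCD3 did not pass either (log2 change -0.03). By the most abundant transcript alone DAP3 and AURKAIP1 did not pass (adjusted p = 0.31 and 0.12).

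Factors that build the particle had calls at shares near those of all genes. Of 25 assembly and rRNA-modifying factors 7 (28%) were lower and 4 (16%) higher, against 26.1% and 22.4% of all genes tested, and 2 or 3 were higher with any 1 library left out (median log2 change -0.04, or 0.05 at the same sum of nuclear-encoded mRNAs). RBFA, which binds the small subunit during its maturation, fell to 22.1 ± 1.16 FPKM with DMAG, against 37.3 ± 1.02 FPKM in controls (1.69-fold lower, adjusted p = 1.3e-04), and the GTPase NOA1 and the large subunit factor MALSU1 were 1.40-fold and 1.39-fold lower. MTG2, a GTPase of the large subunit, was 1.37-fold higher (adjusted p = 3.6e-04). The other 3 that rose, named because the count is small, were YBEY, MTERF3 and MRM2, the methyltransferase of the large rRNA. MRM2 was at 22.1, 23.9 and 24.3 FPKM in DMAG libraries, against 2.88, 3.18 and 0.214 FPKM in control libraries (11.2-fold higher, adjusted p = 0.0022), the largest change in that list.

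Translation factors had 6 of 15 (40%) lower and 0 higher in limma (7 and 1 at an unadjusted p under 0.05; median log2 change -0.14), against 26.1% and 22.4% of all genes tested. By the most abundant transcript 3 were lower and 1 higher, at the same sum of nuclear-encoded mRNAs 3 were higher, and without DMAG replicate 2 or control replicate 1, 1 was higher. TUFM, the elongation factor Tu of mitochondria, fell to 127 ± 7.28 FPKM with DMAG, against 163 ± 1.99 FPKM in controls (1.29-fold lower, adjusted p = 0.0014). PDF, which removes the formyl group from new proteins, was at 9.04, 8.16 and 9.52 FPKM in DMAG libraries, against 14.7, 23.9 and 20.2 FPKM in control libraries (2.20-fold lower, adjusted p = 0.0033). TACO1, an activator of the translation of a cytochrome oxidase subunit, and MTRF1L, a release factor, were 1.28-fold and 1.45-fold lower (adjusted p = 0.0022 and 0.0013), and for MTRF1L the most abundant transcript alone did not pass (adjusted p = 0.97).

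Genes that copy and process mitochondrial DNA and RNA had 12 of 23 (52.2%) lower and 1 (4.35%) higher (median log2 change -0.30). Those shares over all genes tested were 26.1% and 22.4%. POLRMT, the RNA polymerase that transcribes mitochondrial DNA, was at 19.4, 20.4 and 20.8 FPKM in DMAG libraries, against 33.9, 31.1 and 32.4 FPKM in control libraries (1.61-fold lower, adjusted p = 1.7e-04). TFB2M, its initiation factor, was 1.55-fold lower, POLG2, the accessory subunit of the DNA polymerase, 1.64-fold lower, and LRPPRC, which stabilises mitochondrial mRNAs, 1.28-fold lower (adjusted p = 1.8e-04, 9.1e-05 and 3.1e-04 in that order). KIAA0391, the nuclease subunit of mitochondrial RNase P, was the 1 that rose (18.3 ± 0.432 FPKM with DMAG and 10.6 ± 1.12 FPKM in controls, adjusted p = 5.4e-04). Cytosolic ribosomal protein genes, for comparison, had 30 of 81 (37%) lower and 3 higher with a median of -0.16, against 26.1% and 22.4% of all genes tested. By the most abundant transcript 14 of them were lower, and 8 were higher at the same sum of nuclear-encoded mRNAs (5 without control replicate 1). The difference between these lists and the members was not tested.

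**Figure D5:**
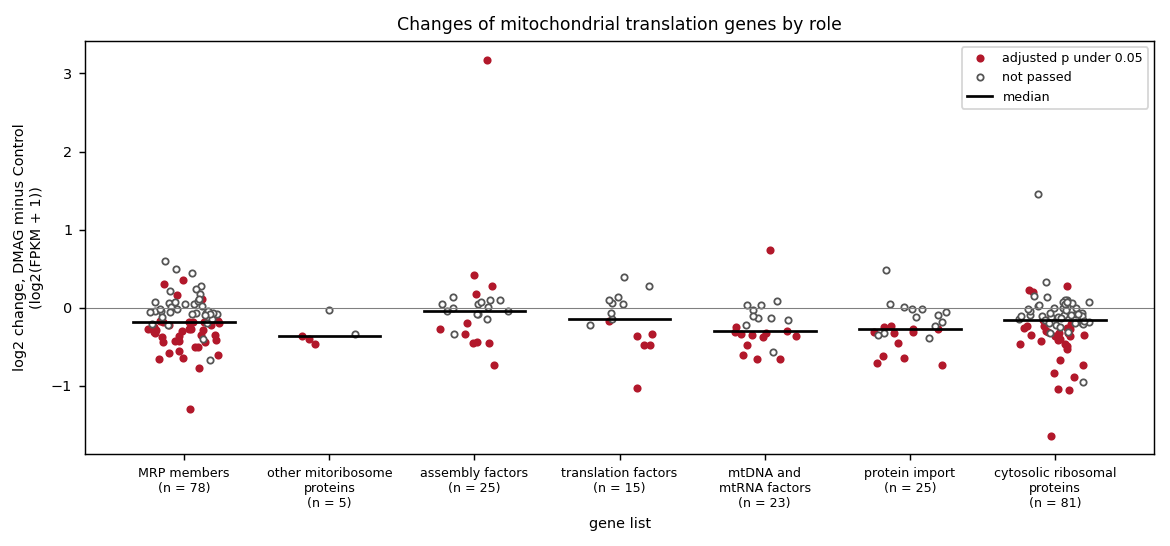
Log2 change with DMAG (DMAG minus control, log2(FPKM + 1)) of each gene in the members and 6 other lists; red points passed at an adjusted p under 0.05, open points did not, black bars are medians. The medians of all 7 lists lie below 0, from -0.36 for the other proteins of the particle to -0.04 for assembly factors, which stands at 0.05 when libraries are scaled to the same sum of nuclear-encoded mRNAs and where MRM2 lies alone at 3.18.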

How the data were processed

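Total RNA without rRNA, with dUTP in the second cDNA strand per the labels' protocols, was sequenced from 3 DMAG and 3 control samples. The authors deposited FPKM values per transcript. GRCh38, StringTie 1.3.3, HISAT2 2.0.4 and Bowtie are named, without roles, in the submitters' processing notes; how reads were counted, and whether by strand, was not given in the sources used here. Depth is therefore unknown and no counting interval is given.

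Transcripts were summed per gene, and the 10394 of 19659 genes averaging 0.5 FPKM or more entered limma 3.58.1 in R 4.3.3 as log2(FPKM + 1), DMAG over control, with moderated variances that follow the mean. P-values were adjusted by Benjamini-Hochberg over all genes tested and called under 0.05; fold changes are ratios of mean FPKM. Separate cultures are not stated in the labels: p-values cover only the spread between these 6 libraries, which may be technical. The members, gene lists and tests were chosen with earlier results of these data known.

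Named were the 10 largest falls and the rises whose groups did not overlap, the 4 most abundant members, the 2 with the smallest change at 5 FPKM or more, MRPL12, DAP3, MYC, NRF1 and GABPA, up to 2 members per site of the particle and up to 4 genes per other list by smallest p. Others were named after their values were seen. RefSeq lists named pseudogenes for 42 of the 78 members, with which reads could have been shared. Names of lncRNAs held no MRPL or MRPS symbol (0 transcripts), and circular RNAs came without source genes, so neither was tested. Alternatives were other pseudocounts, filters and scalings, no mean trend, the most abundant transcript, the replicate number as a block, and each library left out in turn. One marker gene and one promoter window are not reported here.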

Additional observations from a re-analysis of the deposited data

How the results depend on the processing

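Under other pseudocounts, filters on low values, libraries scaled to the same median and the most abundant transcript, the counts of members lower and higher stayed within 1.5 times the reported 37 and 4. Scaled to the same sum without mitochondrially encoded genes, 24 members were lower and 9 higher (large subunit 16 and 5, small subunit 7 and 4) with a median log2 change of -0.092; the 24 and 4 of the 9 were among the reported calls. Without the mean trend, 1 large subunit gene was higher. Leaving out 1 library at a time gave 31 to 38 members lower and 2 to 6 higher (2 without control replicate 1), 20 to 25 large subunit genes lower and 1 to 3 higher (1 without DMAG replicate 2, control replicate 1 or control replicate 2), 10 to 12 small subunit genes lower and 1 to 3 higher (1 without control replicate 1 or 3), and medians of -0.19 to -0.15. Over all 15 alternatives, 17 of the 37 falls and 2 of the 4 rises were called in each. Deviations from the group means correlated across genes at -0.0048, 0.043 and 0.027 between same-numbered samples. Between samples of different number the correlations were -0.048 to 0.019. Whether same-numbered samples share a culture or a preparation cannot be told from these values. With the replicate block 32 members were lower and 5 higher. By the most abundant transcript, 1 of 5 other proteins of the particle, 3 translation factors and 14 cytosolic ribosomal protein genes were lower; at the same sum 3 translation factors and 8 cytosolic ribosomal protein genes were higher. The lncRNA and circular RNA alternatives were not run, since no member could be tied to those tables. Depth is unknown, so how it limits low values cannot be stated.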

Other observations

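Members reach the mitochondrion through the protein import machinery. Of its 25 genes 12 were lower and 0 higher (limma, adjusted p under 0.05). At an unadjusted p under 0.05 the counts were 15 and 0. The median log2 change of the 25 was -0.27, where 26.1% of all genes tested were lower and 22.4% higher. TOMM20, the receptor of the outer membrane, was at 65.6, 65.9 and 65.7 FPKM in DMAG libraries, against 114, 108 and 108 FPKM in control libraries (1.68-fold lower, adjusted p = 4.5e-05). The small chaperones of the intermembrane space TIMM13 and TIMM10 were 1.59-fold and 1.54-fold lower (adjusted p = 3.2e-04 and 0.0015), and HSPA9, the matrix Hsp70 that pulls proteins in, 1.37-fold lower (adjusted p = 4.1e-04).

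Regulators of nuclear genes for mitochondria had 3 of 10 tested (30%) lower and 2 (20%) higher, shares near the 26.1% and 22.4% of all genes tested. Without DMAG replicate 2, or at the same sum of nuclear-encoded mRNAs, 1 was lower. PPARGC1B, a coactivator of mitochondrial genes, fell to 7.81 ± 0.965 FPKM with DMAG, against 13.4 ± 0.707 FPKM in controls (1.71-fold lower, adjusted p = 0.0013), and its relative PPRC1 was 1.18-fold lower (adjusted p = 0.029, lost without DMAG replicate 2, control replicate 1 or control replicate 3 at 0.057, 0.074 and 0.083, and at the same sum at 0.13). NRF1 was 1.16-fold lower (adjusted p = 0.039). It did not pass without DMAG replicate 2 or 3 or control replicate 1 or 2 (adjusted p between 0.069 and 0.11), nor at the same median (0.052). GABPA and YY1, whose letters were searched in the promoters, were 1.28-fold and 1.21-fold higher (adjusted p = 0.0025 and 0.0020), though GABPA did not pass by its most abundant transcript (0.16). MYC was at 47.1, 7.15 and 33.1 FPKM in DMAG libraries and 16.6, 25.3 and 47.7 FPKM in control libraries (adjusted p = 0.79), so its spread within each group was wider than the difference.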
